A study of Mus musculus with 6 samples.

Results

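Circular RNAs (circRNAs) whose only listed host gene is not protein-coding were described in the mouse hippocampus. The table held 10652 circRNAs, and each was listed with the Ensembl identifiers of its host genes. A circRNA was a member when it listed exactly 1 host identifier and the gene type of that identifier in GENCODE vM21 (GRCm38) was anything other than protein_coding. This gave 264 circRNAs of 151 noncoding hosts. The comparison class, circRNAs with exactly 1 protein-coding host, held 8930 circRNAs of 3516 hosts. Of the rest, 658 circRNAs listed no host, 786 listed several and 14 listed 1 identifier that was not in the annotation. Of those with several hosts, 653 listed at least 1 noncoding identifier and were not members.

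The hippocampus was taken from adult male C57BL/6J mice of 8 to 10 weeks. The labels put 3 libraries in a group exposed to chronic unpredictable stress (CUS), a random schedule of mild stressors over 4 weeks, and 3 in a Control group that carried no other treatment. The question was which circRNAs differ with stress. The series speaks of independent samples but not of 1 mouse per library, so a p-value here covers the spread between libraries, which may be technical.

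Values are levels, that is 10 raised to the deposited log10 value, and 0 marks a circRNA with no value in that library. In each library the levels under 300 steps were whole multiples of a single step within 0.05, and the lowest level above 0 was 17 steps. The step ran from 2.41 to 2.66 in Control and from 2.69 to 2.95 in CUS, so the lowest level that could be listed was higher in every CUS library. Libraries held 4329 to 4606 circRNAs above 0 in Control and 3991 to 4273 in CUS. The sources used here do not say what a step counts, so no counting error is given, and a level of 0 does not show absence. All 6 of the neuronal hosts checked for the tissue label had circRNAs, as did all 3 dentate granule and all 3 CA pyramidal hosts. None of the 4 microglial hosts had any, and of 4 vascular and choroid hosts Ttr, Kl and Cldn5 had none.

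A circRNA forms when a splice donor is joined to an acceptor upstream of it, which closes the RNA into a ring without a tail. Long noncoding RNAs are spliced by the same machinery as messenger RNAs and can form rings too. Genes for miRNAs, snRNAs and snoRNAs are short, often lie in the introns of other genes and have no introns of their own. Pseudogenes are copies of coding genes that have lost their reading frame, and processed pseudogenes are copies without introns. The table gave neither coordinates nor a strand for a circRNA, so reads of a host and of a gene that overlaps it cannot be told apart here. Levels of different hosts are not corrected for circRNA length, which the table did not give. The protocol selected RNA by its poly(A) tail, which a ring lacks.

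Mature miRNAs are shown for the 4 miRNA hosts with a RefSeq entry, because the genes listed as hosts are no longer than the precursor hairpins, 70 to 120 bp. Each runs 5′ to 3′ from RefSeq (GRCm38.p6) with the seed, bases 2 to 8, in capitals, and all 6 seeds differ.

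mmu-miR-128-1-5p: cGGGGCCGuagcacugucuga

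mmu-miR-128-3p: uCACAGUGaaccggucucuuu

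mmu-miR-491-5p: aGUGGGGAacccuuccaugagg

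mmu-miR-491-3p: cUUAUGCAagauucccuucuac

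mmu-miR-6412: uCGAAACCauccucagcuacua

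mmu-miR-467g: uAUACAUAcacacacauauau

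The whole hairpin of Mir128-1, which 14 circRNAs list as their host, follows with both mature arms in capitals. It fills all 70 bases of the annotated gene.

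Mir128-1 hairpin: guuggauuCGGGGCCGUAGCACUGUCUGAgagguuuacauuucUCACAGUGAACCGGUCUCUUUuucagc

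Noncoding hosts were short and often lay inside coding genes. Their median length was 7273 bp, against 77270 bp for the protein-coding hosts. The shortest types were miRNA genes with a median of 97 bp, snRNA genes with 106.5 bp, snoRNA genes with 107 bp and processed pseudogenes with 777 bp. Medians were 27324 bp for lincRNA genes, 38758 bp for antisense genes and 61530 bp for processed transcripts. In all, 24 hosts with 42 circRNAs spanned at most 300 bp. A single exon block made up 59 hosts with 109 circRNAs, that is, the annotation gives them no intron.

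**Figure D1:**
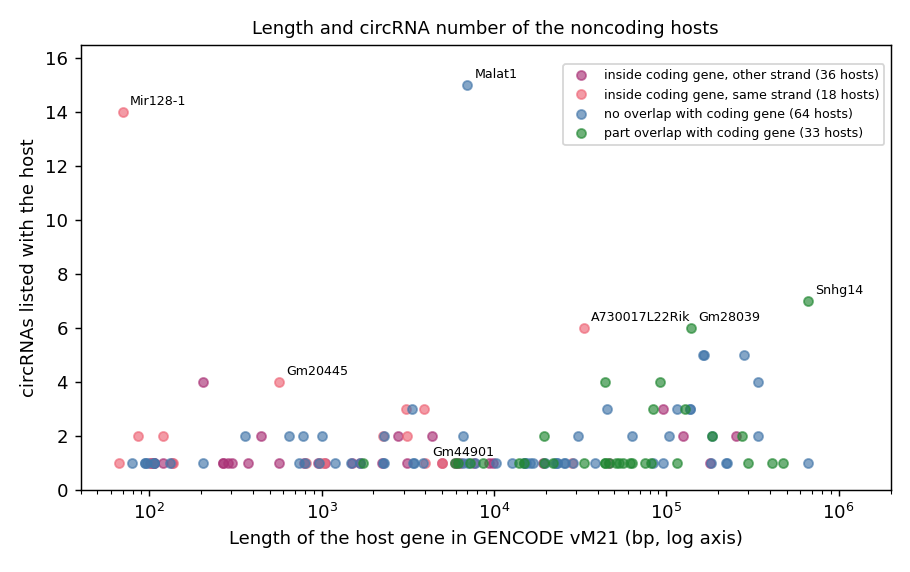
Length of each of the 151 noncoding hosts (bp, log axis) against the number of circRNAs that list it, coloured by position relative to protein-coding genes. Mir128-1 stands apart with 14 circRNAs on 70 bp, and Malat1 with 15 on 6983 bp.

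By position, 18 hosts with 47 circRNAs lay wholly inside a protein-coding gene on the same strand. Another 36 hosts with 46 circRNAs lay inside one on the other strand, 33 hosts with 57 circRNAs overlapped one in part, and 64 hosts with 114 circRNAs overlapped none. Of the 18 on the same strand, 17 touched only introns of the containing gene. For 10 of those 18 hosts, with 31 circRNAs, the identifier of the containing coding gene stood on no row of the table used here. These included R3hdm1 around Mir128-1, Mettl9 around Gm44901, Focad around Mir491 and Rabgap1l around Gm37873. The other 8 lay in genes such as Ank2, which encodes the membrane scaffold ankyrin-B, Pcdh15, a cadherin gene listed on 8 rows, and Dab1, the reelin adaptor listed on 6 rows. For 12 of the 36 hosts on the other strand the containing gene was likewise on no row.

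Some coding genes held more than 1 noncoding host, among them Adgrb3 and Pcdh15. Adgrb3, a brain adhesion receptor gene listed on 12 rows itself, contained the processed pseudogene Gm15702 and the snRNA gene Gm25294. RefSeq gave a biotype for 98 of the 151 hosts and called 4 of them protein-coding: Zswim6, Trerf1, Zcwpw2 and 1810020O05Rik, with 12 circRNAs in all. Their place among the members rests on the GENCODE release alone.

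Most noncoding hosts had a single circRNA. There were 105 hosts with 1 circRNA, 33 with 2 or 3 and 13 with at least 4. The mean was 1.75 circRNAs per host, against 2.54 for protein-coding hosts. Most members, 172 of 264, were above 0 in at most 2 libraries. In all, 113 (42.8%) were above 0 in 1 library and 24 (9.09%) in all 6, against 35.7% and 7.59% of protein-coding-host circRNAs. By host, 28 were above 0 in all 6 libraries and 51 in 1.

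Gm28039 (ENSMUSG00000098302), a processed transcript of 138626 bp, had the highest summed circRNA level of the noncoding hosts, from 6 circRNAs. It lies at chr5:106557946-106696571 on the minus strand. In replicates 1, 2 and 3 its sums were 3739.5, 5552 and 4872 (Control) against 5601, 5010.3 and 7453 (CUS), the order used for all values below. The highest library was a CUS library and the lowest a Control library, but the groups overlapped. The gene shares part of its span with Zfp644, a zinc finger gene on the same strand whose identifier stood on no row. Its leading exonic circRNA, mmu_circRNA008243, was at 978, 1972 and 1801 (Control) against 2795, 2133 and 3234 (CUS). The 2 intronic ones, mmu_circRNA008248 and mmu_circRNA008246, were above 0 in every library and overlapped between groups. Both genes lie on the same strand and no circRNA coordinates are given, so reads of Zfp644 cannot be separated from those of Gm28039.

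Gm44901 (ENSMUSG00000108954) is an unclassified gene (GENCODE type TEC, awaiting experimental evidence) of 3977 bp and 1 exon at chr7:121052345-121056321. It lies in an intron of Mettl9, a histidine methyltransferase gene on the same strand. Its only circRNA was at 6028, 4674 and 3237 (Control) against 2521, 3580 and 5618 (CUS). The groups overlapped, with the extremes in Control replicate 1 and CUS replicate 1. Nlrp5-ps, a pseudogene of an oocyte NLR gene with 14 exon blocks, had sums of 3595, 3008 and 2282 (Control) against 3337, 5817 and 2710 (CUS). CUS replicate 2 was the highest library, and the groups overlapped. A730017L22Rik, a processed transcript that shares exon sequence with 4930402H24Rik on the same strand, had sums of 1753, 1899 and 3144 (Control) against 2385, 1754 and 1166 (CUS). One of its 6 circRNAs, mmu_circRNA006339, held 65.8 to 79.7% of that sum in each of the 6 libraries.

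**Figure D2:**
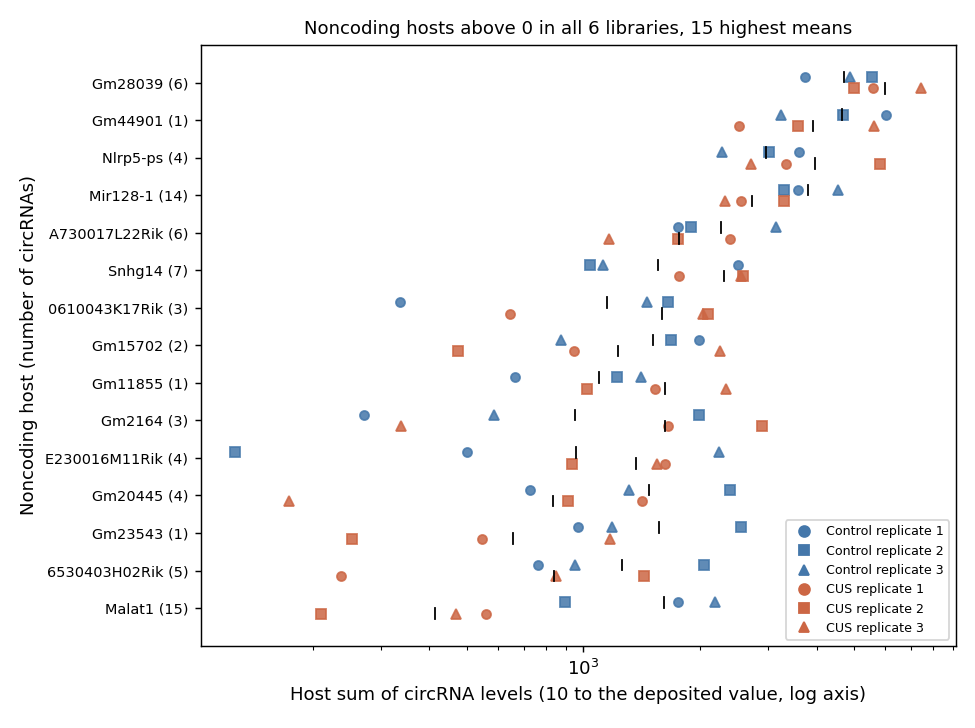
Host sums of circRNA level (log axis) in each library for the 15 noncoding hosts of highest mean among those above 0 in all 6 libraries, with the number of circRNAs in brackets. Black ticks are group means; only Malat1 and Mir128-1 show Control and CUS libraries that do not overlap.

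Among the noncoding hosts, Mir128-1 was listed with more circRNAs than any other except Malat1. The gene at chr1:128202361-128202430 on the plus strand encodes the precursor of miR-128, a miRNA abundant in neurons, and lies in an intron of R3hdm1. Its 14 circRNAs were all classed as exonic, although the gene is 70 bp long. In the numbered identifiers of the table they fell between 477 and 495, a run of 17 rows in which the other 3 listed no host and none listed R3hdm1. Host sums were 3590, 3303 and 4535 (Control) against 2556, 3300.1 and 2316 (CUS). Every CUS library lay below every Control library, with Control replicate 2 and CUS replicate 2 almost level. The log2 difference was -0.48 with SE 0.39 (limma, adjusted p = 0.918).

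The single circRNAs of Mir128-1 did not share a direction. mmu_circRNA000480 was at 275, 277 and 300.5 in the Control libraries and at 0 throughout CUS. mmu_circRNA000488 was listed at 0 in all 3 Control libraries and was at 159, 140 and 223 in CUS. Both were above 0 in only 3 libraries, the least that the test accepts, and all of one group. They thus had to differ, and their directions support nothing about the host. The highest, mmu_circRNA000495, was above 0 in every library, at 686, 678 and 505 (Control) against 1368, 317 and 574 (CUS), and overlapped. A further pair, mmu_circRNA000483 and mmu_circRNA000481, was above 0 in the same 4 libraries with levels no more than 40.8 apart, so they may not be separate measurements.

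Malat1, an abundant nuclear RNA of the splicing speckles, had the most circRNAs of the noncoding hosts, 15. The annotated gene (chr19:5795690-5802672, minus strand, 6983 bp) is 1 exon block and overlaps no coding gene. Each of the 15 was above 0 in exactly 1 library: 4, 2 and 5 of them in the Control libraries, then 1, 1 and 2 for CUS. No Malat1 circRNA was thus seen again in another library. The sums were 1750, 897.5 and 2189 (Control) against 560, 210 and 467.5 (CUS), with no overlap. The log2 difference was -1.86 with SE 0.76. Malat1 had the smallest limma p of the noncoding hosts, and its adjusted p was 0.737. The highest Malat1 circRNAs, mmu_circRNA005358 and mmu_circRNA005359, had the same level of 588 in Control replicate 3. In Control replicate 1, mmu_circRNA005367 and mmu_circRNA005371 were close, at 574.5 and 555. So were mmu_circRNA005374 and mmu_circRNA005365 in CUS replicate 3, at 255.5 and 212. Such pairs may not be separate measurements, so the Malat1 sums may count the same ring again.

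Snhg14 is the long imprinted transcript of the Prader-Willi region, the source of the Snord115 and Snord116 snoRNAs in neurons. The annotated gene spans 667836 bp on chromosome 7 and holds 208 snoRNA genes. Its 7 circRNAs were exonic. The sums were 2508, 1039 and 1125 (Control) against 1769, 2582 and 2558 (CUS), which overlapped through Control replicate 1. A single ring, mmu_circRNA009364, was above 0 in all 6 libraries, at 1622, 880 and 957 (Control) against 1660, 1415 and 2406 (CUS). mmu_circRNA009363 was at 213, 159 and 168 in Control, with 0 throughout CUS. The other 5 were each seen in 1 or 2 libraries.

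Of 32 RNAs listed as known in brain, 29 were in the annotation and 9 were members: Malat1, Snhg14, Meg3, Mirg, Miat, Pvt1, Pantr1, Dlx6os1 and Gm26917. Only 4 of the 9 were above 0 in at least 3 libraries and could be tested, and none passed. Of these, 3 had a fitted value higher in CUS and 1 lower, where 47.8% of all hosts tested were higher. So few hosts show no shared direction. Meg3, the maternally expressed lncRNA of the Dlk1-Dio3 region, was at 319, 0 and 239 (Control) against 0, 191 and 446 (CUS). Mirg, a miRNA-bearing RNA of the same region, was above 0 only in CUS replicate 3, at 522. Miat, a nuclear RNA of neurons, was likewise above 0 only in CUS replicate 3, at 294. Pantr1, which neighbours the neuronal factor gene Pou3f3, was listed at 0 in Control and was at 286, 568 and 0 in CUS. Pvt1, the neighbour of Myc, was also listed at 0 in Control and was at 433, 613 and 0 in CUS. Both were thus seen in the same 2 CUS libraries. Dlx6os1, an antisense RNA of interneuron development, was above 0 in Control replicate 2 (202) and CUS replicate 3 (321). Gm26917 was at 246, 65.6 and 0 (Control) against 79.6, 565 and 0 (CUS). Each of these hosts was listed at 0 in at least 1 library of both groups or throughout Control.

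Of 29 miRNA and snoRNA host RNAs, 25 were annotated and 4 were members. Besides Snhg14, Meg3 and Mirg this was Mir124a-1hg, which carries the neuronal miR-124, at 65.2 in Control replicate 1 and 76.1 in CUS replicate 3 and listed at 0 in the others. Of 14 imprinted or X-inactivation RNAs all were annotated and 4 were members, the same 3 and Ftx. Ftx, from the X-inactivation centre, was at 258, 0 and 255 (Control) against 0, 183 and 353 (CUS). No member of either list passed the test. Fitted higher in CUS were 2 of 2 and 2 of 3 tested hosts, against 47.8% of all hosts tested. The log2 differences of Meg3 (0.05, SE 1.49) and Ftx (-0.0016, SE 1.46) were far smaller than their SE, so their directions carry little. The lists share Snhg14, Meg3 and Mirg, so their counts are not independent.

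The remaining small RNA hosts were sparse. Among the snRNA genes only Gm23543 was above 0 in all 6 libraries, at 968, 2549 and 1186 (Control) against 548, 253 and 1174 (CUS). The groups overlapped between Control replicate 1 and CUS replicate 3. Its log2 difference was -1.30 with SE 0.72 (limma, adjusted p = 0.918). Mir491, which lies in Focad, was above 0 in Control replicate 3 (300.5) and in CUS replicates 1 (1067) and 3 (209). Mir6412, which overlaps no coding gene, was at 0, 197 and 447 (Control) against 0, 218 and 207 (CUS). Mir467g was above 0 in CUS replicates 2 and 3 only, and Gm26386, the fifth miRNA host, in CUS replicate 1 only. Snord116l12, a gene within the Snhg14 span, was at 1005 in Control replicate 3 and listed at 0 elsewhere.

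Pseudogene hosts carry the added doubt that reads of their parent genes or of other copies may be counted with them. Processed pseudogenes made up 27 hosts with 38 circRNAs. Gm15702, of 444 bp inside Adgrb3 on the other strand, was at 1992, 1679 and 875 (Control) against 946, 473 and 2256 (CUS). Gm11855, which overlaps no coding gene, was at 666, 1220.4 and 1404 (Control) against 1533, 1019 and 2329 (CUS). Both overlapped between groups. Gm19280, of 205 bp inside the Ras regulator gene Rasa2 on the other strand, was at 700.2, 693 and 205 (Control) against 825.5, 853 and 1767 (CUS). Here every CUS library lay above every Control library (log2 difference 1.12, SE 0.79, limma adjusted p = 0.918). Gm20445, with 4 circRNAs, was at 729, 2388 and 1311 (Control) against 1418, 912 and 174 (CUS), which overlapped. Zfa-ps, a transcribed pseudogene of a zinc finger gene, was at 1409.9, 1561 and 745 (Control) against 828, 753 and 761 (CUS). Among pseudogenes of other types, Nlrp5-ps, given above, was above 0 in every library. Zcwpw2, Gm21092 and Atp10d were each listed at 0 in at least 1 library of a group.

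Summed by gene type, lincRNA hosts and processed transcripts carried the most. The 40 lincRNA hosts with 81 circRNAs summed to 10848 ± 751 for Control against 10510 ± 1629 for CUS (SD over 3 libraries, exact permutation p = 0.8). The 9 processed transcripts with 32 circRNAs summed to 10753, 9566 and 11647 (Control) against 12983, 12382 and 14713 (CUS). This was the only one of the 9 types with at least 5 circRNAs in which the groups did not overlap, and its exact permutation p of 0.1, the smallest that 3 against 3 allows, became 0.9 after adjustment over the 9 types. Gm28039, Snhg14 and E230016M11Rik are among these hosts, as are Zswim6 and Trerf1, which RefSeq calls protein-coding. The means of these were higher in CUS. A730017L22Rik is a processed transcript too, and its mean was lower in CUS, at 1768 against 2265 in Control. The snRNA hosts were at 1564, 3722 and 2896 (Control) against 1521, 944 and 2770 (CUS), and overlapped.

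**Figure D3:**
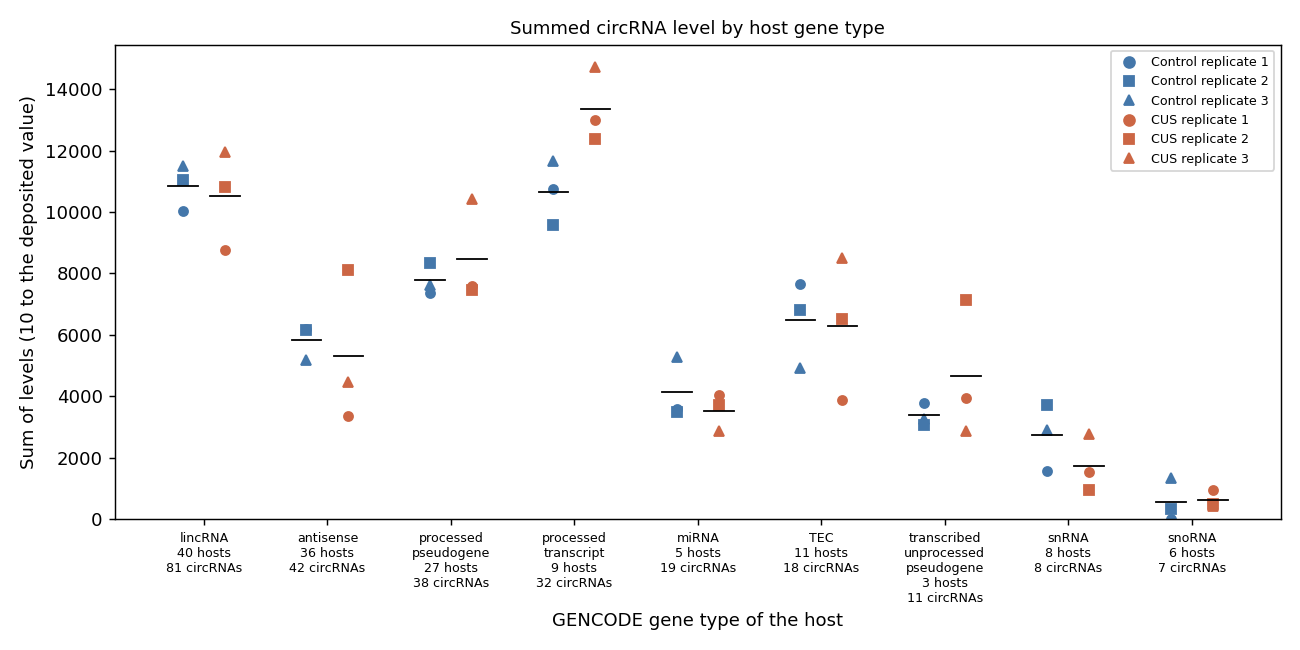
Summed circRNA level in each library by GENCODE gene type of the host, for the 9 types with at least 5 circRNAs; black lines are group means. Processed transcripts lie higher in all 3 CUS libraries (12382 to 14713) than in all 3 Control libraries (9566 to 11647), and the other types overlap.

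The noncoding hosts as a class carried 2.41 to 3.07% of the summed circRNA level of a library. The sums were 52622, 54248 and 54965 (Control) against 48277, 58869 and 60997 (CUS). CUS replicate 1 was the lowest of all and CUS replicates 2 and 3 the highest. The mean difference, CUS minus Control, was 2103 (53945 ± 1201 against 56048 ± 6813, SD, n = 3 each), within the spread of the CUS libraries (exact permutation p = 0.6). Without CUS replicate 3 the difference was -372.

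Between 94 and 121 of the 264 circRNAs were above 0 in a library. The numbers were 107, 99 and 101 (Control) against 94, 121 and 111 (CUS), a difference of 6.33 that was within the CUS spread (exact permutation p = 0.6). As a percent of all circRNAs above 0 in the library they made up 2.32, 2.19 and 2.33 (Control) against 2.36, 2.86 and 2.60 (CUS). On this scale every CUS library was higher, with an exact permutation p of 0.1, the smallest possible. The number of all circRNAs above 0, by which this percent is divided, was lower in each CUS library. Its part in the result was not tested.

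**Figure D4:**
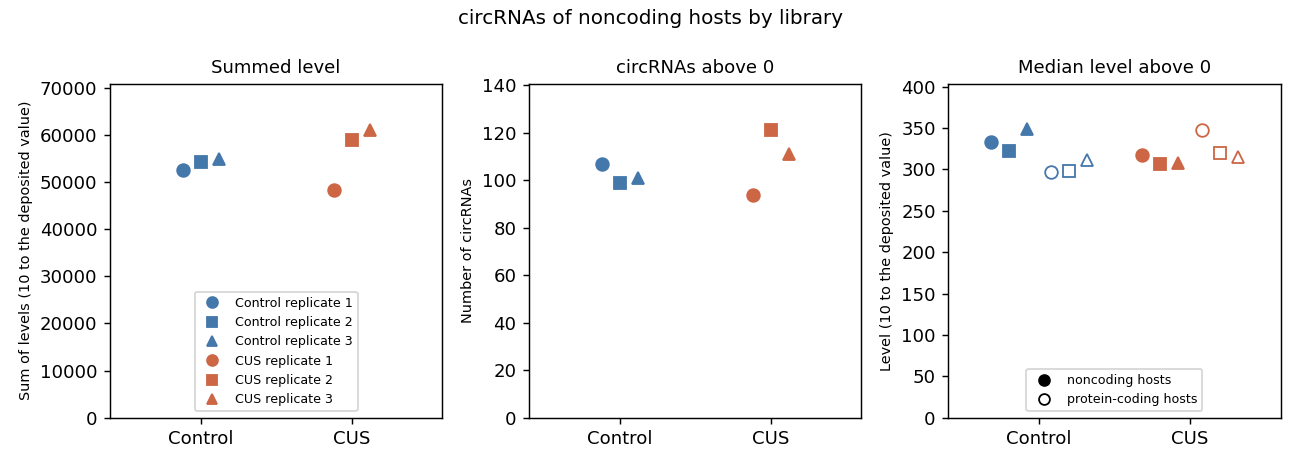
The circRNAs of noncoding hosts in each library: summed level, number above 0, and median level of those above 0 beside the same median for protein-coding hosts (open symbols). The noncoding median lay above the coding one in all 3 Control libraries and below it in all 3 CUS libraries.

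The level of a single circRNA was compared between the host classes. The median level of those above 0 was 333, 323 and 348 (Control) against 317, 307 and 307 (CUS). For protein-coding hosts it was 297, 297.5 and 311 (Control) against 348, 320.0 and 315 (CUS). The log2 ratio of the medians averaged 0.04 over the 6 libraries, with an exact sign-flip permutation p of 0.562. It was above 0 in all 3 Control libraries (0.17, 0.12 and 0.16) and below 0 in all 3 CUS libraries (-0.13, -0.06 and -0.04). The share of each class above 0 differed by -1.03 percentage points on average, noncoding minus coding, and was higher for noncoding hosts in 2 of 6 libraries (exact sign-flip permutation p = 0.531). By library it was -3.33, -5.34 and -2.63 (Control) against -2.35, 5.80 and 1.69 (CUS), without overlap. The group difference of 5.48 points had an exact permutation p of 0.1, the smallest possible, in a test added after the values were seen.

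Intronic circRNAs, rings the table places in an intron, were more frequent among noncoding hosts. Over the table, 31 of 264 (11.7%) were intronic, against 4.84% for protein-coding hosts. Of the circRNAs above 0 in a library, 11.2, 9.09 and 13.9% were intronic in Control and 10.6, 6.61 and 10.8% in CUS, against 2.51 to 3.10% for protein-coding hosts. The share was higher for noncoding hosts in 6 of 6 libraries, by 7.59 ± 2.38 percentage points (SD, n = 6). The exact sign-flip permutation p of 0.0312 is the smallest that 6 libraries allow. This test was added after the values were seen. The circRNAs above 0 differ between libraries but are drawn from the same listed circRNAs, so the test covers the spread between libraries only. Antisense hosts held 15 of the intronic ones (35.7% of their 42 circRNAs), lincRNA hosts 10 (12.3%) and processed transcripts 5 (15.6%). No circRNA of a miRNA, snRNA, snoRNA, processed pseudogene or TEC host was classed as intronic.

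Hosts and single circRNAs were then compared between CUS and Control with limma on log2(level + 45.5), for those above 0 in at least 3 of 6 libraries. The 45.5 added is the median of the 6 lowest listed levels, so differences of low circRNAs are understated. Of the noncoding hosts 69 were tested and 82 were not. None passed an adjusted p of 0.05, as was so for all hosts of the table (0.0% of 2227), with 0.737 as the lowest adjusted value. An unadjusted p under 0.05 was reached by 3 noncoding hosts (4.35% of those tested), against 5.70% of all hosts. Of the 3, 2 were higher in CUS, where the background was 2.56%, and 1 was lower, where it was 3.14%. Fitted values were higher in CUS for 35 and lower for 34, against 47.8% and 52.2% of all hosts. The median log2 difference was 0.02, and -0.06 over all hosts tested. These shares were near the background. Without any one of the 3 Control libraries or of CUS replicates 1 and 2 the count at an unadjusted p under 0.05 was 1, and without CUS replicate 3 it was 3.

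The 3 hosts were Malat1, given above, Gm43967 and Gm336. Gm43967, a processed pseudogene of 301 bp inside the autophagy adaptor gene Tax1bp1 on the other strand, was listed at 0 in all 3 Control libraries and was at 254, 135 and 242 in CUS (limma, adjusted p = 0.737). Gm336, a processed pseudogene that overlaps no coding gene, was likewise listed at 0 in Control and was at 265, 210 and 95.2 in CUS (limma, adjusted p = 0.756). No fold is given for these 2, since one group was listed at 0. Both passed the filter on low values only through the 3 CUS libraries, so they had to differ, and the counts that include them support nothing about the noncoding hosts. Without any one CUS library these 2 hosts fell below the filter and were not tested. The 3 hosts counted without CUS replicate 3 were therefore not the same 3. Higher than in Control in every CUS library were 4 hosts, with 5.66% of all hosts tested doing the same: Gm43967, Gm336, Gm19280 and Gm43597. Gm43597, a lincRNA gene next to N4bp2l2, was at 258, 257 and 0 (Control) against 389, 1078 and 514 (CUS). Lower in every CUS library were Malat1 and Mir128-1, against 5.75% of all hosts.

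Other hosts of small p overlapped between groups. E230016M11Rik, which overlaps the stress-response gene Gadd45a on the other strand, was at 499.7, 126 and 2237 (Control) against 1621, 933 and 1552 (CUS). AC113458.1, which overlaps the potassium channel gene Kcnab1, was at 53.1, 0 and 0 (Control) against 383, 0 and 326 (CUS). A230072E10Rik, antisense to the kinase gene Wnk3, was at 154.5, 292.5 and 152 (Control) against 0, 0 and 163 (CUS). Chn1os3, antisense to the Rac regulator gene Chn1, was at 263, 0 and 199.5 (Control) against 0, 0 and 68.0 (CUS). None of these reached an unadjusted p of 0.05 with all 6 libraries. E230016M11Rik did so without Control replicate 3 (log2 difference 2.17) and AC113458.1 without CUS replicate 2 (log2 difference 2.76). Among the longer hosts, the antisense gene Gm2164 was at 270.4, 1989 and 588 (Control) against 1657, 2886 and 337 (CUS), and the lincRNA 6530403H02Rik was at 765, 2052 and 952 (Control) against 236, 1431 and 851 (CUS). Zswim6, which RefSeq calls coding, was at 1202, 403 and 269 (Control) against 97.3, 1210.3 and 899.7 (CUS). All 3 overlapped widely.

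**Figure D5:**
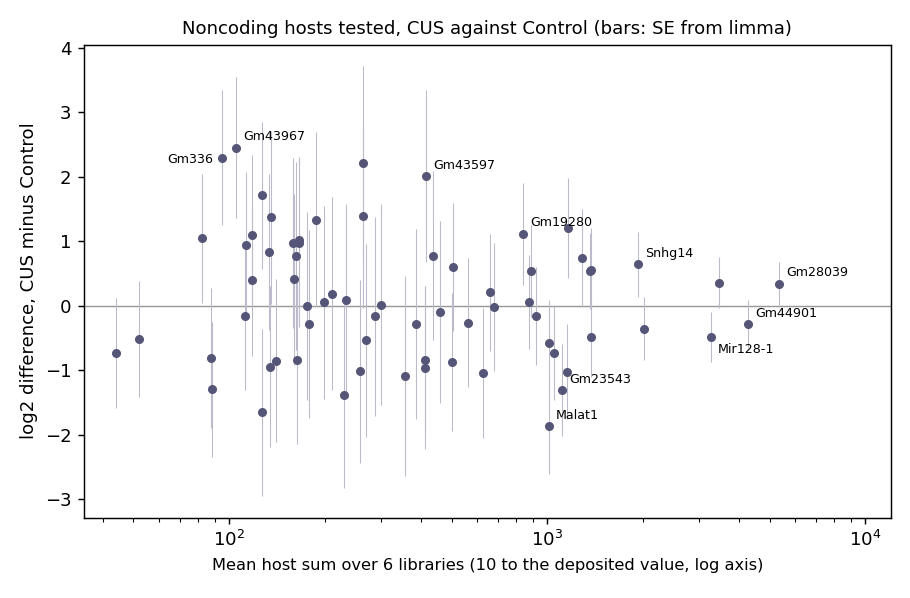
Log2 difference of the host sum, CUS minus Control, with its SE from limma, against the mean host sum (log axis) for the 69 noncoding hosts tested. The 4 hosts of highest mean lie within 0.5 of 0 on the log2 scale, and the larger differences, Malat1 among them, belong to hosts with means near or below 1000.

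Of the single circRNAs 92 were tested and 172 were not. None passed an adjusted p of 0.05, again as for the whole table (0.0% of 3896), with 0.577 as the lowest adjusted value. Fitted values were higher in CUS for 42 and lower for 50, against 47.2% and 52.8% of all circRNAs tested, and the median log2 difference was -0.14, against -0.12. An unadjusted p under 0.05 was reached by 6 (6.52%), against 6.01% of all circRNAs tested. Of these, 4 were higher in CUS, where the background was 2.75%, and 2 were lower, where it was 3.26%. The higher ones were mmu_circRNA000488, mmu_circRNA008791 of Gm43967, mmu_circRNA005394 of Gm336 and mmu_circRNA007410 of the lincRNA 0610043K17Rik. The last was at 0, 0 and 319 (Control) against 354, 648 and 1454 (CUS). The lower ones were mmu_circRNA000480 of Mir128-1 and mmu_circRNA009363 of Snhg14, both listed at 0 in every CUS library. In 5 of the 6, one group was listed at 0 throughout. These 5 passed the filter only through the other group, so they had to differ, and the count of 6 and its directions support nothing. Leaving out any one of the 6 libraries reduced the count of 6 to 1 or 2. Next by p and lower in the CUS means were mmu_circRNA008830 of Gm20445, at 471, 1619 and 497 (Control) against 374.5, 180.2 and 0 (CUS), the circRNA of Gm23543 given above, and mmu_circRNA008244 of Gm28039, at 451, 429 and 154 (Control) against 61.9, 53.8 and 0 (CUS). The last ran against the leading ring of the same host, mmu_circRNA008243, which was higher in every CUS library. Groups did not overlap for 7 higher circRNAs (7.61%, against 5.78% of all tested) and for 4 lower ones (4.35%, against 5.08%). These counts include the 5 that had to differ.

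Other measures differed between the same libraries. The summed circRNA level of the 3 dentate granule marker hosts was 1527 to 2920 in Control and 3993 to 5489 in CUS, and that of the 3 CA pyramidal hosts was 3942 to 7006 in Control and 2751 to 3210.2 in CUS. The oligodendrocyte hosts, 3 of 4 with circRNAs, were at 758 to 1545 and at 1873 to 2990. The astrocyte hosts, 4 of 5 with circRNAs, were at 1085 to 1525 and at 1710 to 2642, and Slc1a3 had none. The part of these and of the step size in the values of the noncoding hosts was not tested. In bulk tissue, fewer cells of a type and less RNA per cell cannot be told apart.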

How the data were processed

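RNA of 6 hippocampal libraries, 3 CUS and 3 Control by their titles, was selected for poly(A), made into stranded libraries with molecular identifiers and sequenced in pairs, per the labels' protocols. The authors deposited one table of circRNAs with log10 values, 0 marking no value. The submitters' processing notes name mm9 and StringTie but give them no role, and no source used here names the circRNA caller. Levels were 10 to the value. Totals per library ran from 1990255 to 2050720, and the depth in reads is unknown.

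Gene types, coordinates and positions came from GENCODE vM21 (GRCm38), which held 4467 of the 4483 host identifiers. Printed coordinates are GRCm38 positions of the host gene. circRNA levels were summed by host over the whole table of 3772 hosts. Each host or circRNA above 0 in at least 3 of 6 libraries was fitted with limma 3.58.1 (lmFit, eBayes with trend, R 4.3.3) on log2(level + 45.5), group as the only term, with Benjamini-Hochberg adjustment over the whole table and a threshold of 0.05. The fit was also run on simulated host levels. These held no values of 0, unlike the levels here, so that run does not show how the fit handles them. Single values per library were compared by exact two-sided permutation (smallest p 0.1), and the 2 host classes by exact two-sided sign flips over 6 libraries (smallest p 0.0312), in Python 3.11.15 with scipy 1.17.1, pandas 2.3.3, numpy 2.4.6 and matplotlib 3.10.9.

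Named were Gm44901, the 10 hosts of highest mean, the 5 higher and 5 lower hosts and circRNAs of smallest p, the hosts with most circRNAs, the highest host of each gene type, hosts above 0 in all 6 libraries (15 at most) and list members with a circRNA; hosts named outside this rule, such as Gm25294, Gm37873, Mir491, Mir6412, Mir467g and Gm26386, were chosen after their values were seen. The members and lists were chosen with earlier results of these data known. Alternatives were other pseudocounts, other filters, quantile normalization, a replicate block, leaving out each library, and, chosen after seeing the data, leaving out hosts that RefSeq calls coding or that lie inside a coding gene on the same strand. The tests of intronic share and of the group differences in the ratio of medians and in the share above 0 were also added then. A few positions and list members are not reported here.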

Additional observations from a re-analysis of the deposited data

Results flagged for a closer look

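The ratio of the median level of noncoding-host circRNAs to that of protein-coding-host circRNAs was flagged because it differed between the groups without overlap. The log2 ratio was 0.15 ± 0.03 for Control against -0.08 ± 0.05 for CUS (SD over 3 libraries), a difference of -0.23, above 0 in 3 of 3 Control and below 0 in 3 of 3 CUS libraries. The exact two-sided permutation p was 0.1, the smallest that 3 against 3 libraries can give, and the test was added after the values were seen. CUS minus Control, the noncoding median differed by -24.5 and the coding median by 25.8. The lowest level above 0 was 41.1, 42.9 and 45.2 in Control replicates 1 to 3 against 50.1, 45.7 and 46.2 for CUS, and its part in the result was not tested.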

How the results depend on the processing

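No host or circRNA of a noncoding gene passed an adjusted p of 0.05 in any setting run (0 in each). Counts at an unadjusted p under 0.05 depended on the settings. Host sums gave 3, and 1 without the filter on low values or with the filter at all 6 libraries, and 1 to 3 when each library was left out in turn. circRNAs gave 6, and 2 without the filter, 0 with the filter at all 6 libraries and 1 to 2 when each library was left out in turn. None of the 6 circRNAs was above 0 in all 6 libraries, so the stricter filter left them all out. The 5 above 0 in one group only were not tested without a library of that group. Gm43967 and Gm336 were likewise not tested without a CUS library. Fewer samples also remain without a library, and the cause of the other changes was not tested. The summed level difference of 2103 was -371.9 without CUS replicate 3 and 5988 without CUS replicate 1. Of 472 settings over 38 named hosts and circRNAs, 453 kept the direction and the side of the threshold and 19, in 7 hosts, turned the direction, none of them past the adjusted threshold. Log2 differences of these hosts over the left-out libraries ran from -0.13 to 1.09 for 0610043K17Rik, -0.91 to 0.91 for Ftx, -1.04 to 0.031 for Gm15702, -0.59 to 1.28 for Gm26917, -0.89 to 1.02 for Meg3, -0.98 to 0.94 for Zcwpw2 and -0.61 to 0.96 for Zswim6. With 5 times the pseudocount Ftx was at 0.0078 and Zswim6 at 0.078, and with quantile normalization Ftx was at 0.025, Zcwpw2 at 0.027 and Zswim6 at 0.042. The unadjusted p of Malat1 in its limma fits ran from 0.0109 to 0.101 over the alternatives, that of E230016M11Rik from 0.0179 to 0.652 and that of AC113458.1 from 0.0494 to 0.279. Deviations from the group means correlated at -0.03, -0.04 and -0.08 between same-numbered libraries. Between a Control and a CUS library of different number they correlated at -0.02 to 0.05. These values cannot decide whether same-numbered libraries were prepared together. With a replicate block, 3 host sums and 6 circRNAs had an unadjusted p under 0.05 and 0 passed the adjusted threshold.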

Other observations

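The noncoding hosts crowded most on chromosome 7 around Snhg14. A window of 3 Mb, chosen after the positions were seen, ran from 59286052 to 62209479 (GRCm38) and held 11 noncoding hosts with 21 circRNAs. Of the protein-coding hosts, Snrpn, which encodes a spliceosomal protein, lay wholly inside it. Ube3a, a ubiquitin ligase gene listed on 3 rows, reached across its start and contained Gm44560. The hosts were Gm44560, Snhg14, A230103L15Rik, Gm23145, Gm25471, Snord116l12, Gm10297, A230006K03Rik, A230057D06Rik, Gm23431 and Gm9801, and 4 lay within the span of Snhg14. This is the imprinted Prader-Willi region, known for brain-expressed paternal transcripts and snoRNA clusters. Their summed level was 3235, 2968 and 3442 in Control replicates 1 to 3, against 3452, 3419 and 4359.8 for CUS. The lowest CUS library lay below the highest Control library, so the groups overlapped, and only Snhg14 was above 0 in all 6 libraries.

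Some members had nearly the same values as a neighbour of the same host. In 13 pairs from 10 hosts both circRNAs were above 0 in the same libraries and differed by no more than 45.5, and 9 of these pairs were above 0 in 1 library. The lincRNA Gm13483 gave the clearest case over all 6 libraries. mmu_circRNA005955 was at 396, 398 and 213 in Control replicates against 1049.5, 215 and 198 for CUS, and mmu_circRNA005954 at 415, 418.5 and 223 against 1049.5, 226 and 209. Whether such pairs are rings with shifted ends was not tested, since no coordinates were used.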
